A study of Homo sapiens with 12 samples.

Results

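The 9 genes CFLAR, XIAP, BIRC2, FAS, TNFRSF10A, TNFRSF10B, FADD, CASP8 and CASP9 encode death receptors, the adaptor and initiator caspases that act after them, and proteins that hold these caspases in check. They were taken by name from the 22379 genes of the deposited table. Of the 9 genes, 8 passed the filter on low values (an untreated mean no lower than 10), as did 13811 genes in all. TNFRSF10A was the exception.

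The mRNA of U2OS cells, a human osteosarcoma line, was measured in 12 libraries that formed 6 groups of 2 replicates. Cells received Cas9 with a nontargeting guide (NONT) or with a guide to NUP93, a protein of the nuclear pore, or to EXOSC5, a subunit of the RNA exosome, and are called NONT, NUP93-KO and EXOSC5-KO. All 3 genotypes had thus been transfected with a Cas9 plasmid and selected with puromycin, so each library came from a pool of cells and not from a clone. Each genotype was given DMSO (called untreated) or 1 μM triptolide, which blocks initiation by RNA polymerase II, for 8 h.

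Extrinsic apoptosis begins when a ligand gathers a death receptor such as Fas (FAS), DR4 (TNFRSF10A) or DR5 (TNFRSF10B) at the cell surface. The adaptor FADD then joins the receptor to procaspase-8 (CASP8), while c-FLIP (CFLAR) occupies the same complex and limits caspase-8 activity. The intrinsic route, which starts at mitochondria, activates caspase-9 (CASP9) on the APAF1 apoptosome, where XIAP can bind and inhibit it. c-IAP1 (BIRC2) is a ubiquitin ligase of TNF receptor complexes.

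Values are a signal per gene that the authors scaled to ERCC spike-in RNAs added in proportion to cell number. A loss of mRNA from all genes at once is therefore kept in the values. The genes and spike-ins of the deposited table held about 8.60 to 11.96 M reads per library, estimated from the commonest low value. The sum of all gene signals lay between 4.90 and 16.4 M. Fewer cells of a given state and less RNA per cell cannot be told apart in such bulk samples. The labels do not say whether the 2 replicates of a group were separate cultures, so p-values measure only the spread between libraries. In the check of the targeted genes, EXOSC5 signal was 299 and 481 in untreated NONT against 216 and 148 in untreated EXOSC5-KO, and NUP93 signal was 1753 and 2489 in untreated NONT against 1395 and 1432 in untreated NUP93-KO. With triptolide the NUP93 signal of 801 and 1019 in NUP93-KO overlapped that of 1007 and 899 in NONT, so mRNA did not separate these genotypes there. A CRISPR edit need not lower the mRNA of its target. Of the osteoblast-lineage and mesenchymal markers, VIM ranged from 24275 to 66974, COL1A1 from 15197 to 57588 and SPARC from 7368 to 19756. RUNX2 ranged from 9.56 to 403.5 and ALPL from 53.1 to 245.5, and COL1A2 reached only 42.0. The epithelial markers EPCAM (16.8 to 47.6) and CDH1 (13.5 to 69.7) were also above 0 in all 12 libraries. RUNX2 and ALPL overlapped CDH1 in range. The blood, endothelial and liver markers PTPRC, PECAM1 and ALB stayed at or below 9.99.

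Per kb of the canonical transcript, which allows genes to be compared, FADD had the highest untreated level, with a mean of 474 over the 6 untreated libraries (range 379 to 557). TNFRSF10B followed at 349 per kb (239 to 451), then BIRC2 at 171 (135 to 217), CASP8 at 120.5 (83.3 to 189.8) and CASP9 at 89.2 (61.5 to 122). CFLAR at 40.3 per kb (34.0 to 46.1), XIAP at 32.8 (18.7 to 45.9) and FAS at 26.8 (12.3 to 42.9) came last. Neighbours in this order overlapped in range, except that TNFRSF10B lay above BIRC2, and CASP9 above CFLAR, in all of these libraries. The CFLAR level per kb depends on the transcript chosen, since its canonical form of 14612 bases is mostly 3′ UTR (12714 bases). Values per gene also do not separate the long and short proteins made from CFLAR.

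Because all members were followed while new transcription was blocked, the 3′ UTRs were searched for the AU-rich pentamer ATTTA (read with U for T in the RNA), a motif known from many unstable mRNAs. The search used the sense strand of the canonical transcript and counted overlapping matches. The 3′ UTR of BIRC2 is short (487 bases) but held 3 matches, or 6.16 per kb, a density higher than in 95.3% of the 12933 tested genes with a 3′ UTR. XIAP held 20 matches (2.95 per kb) and CFLAR held 23 (1.81 per kb), against a median of 1.75 per kb. The stretches of 30 bases with the most matches are shown for these 3 inhibitors, with the pentamers in capitals, 5′ to 3′ on the plus strand of GRCh38 at chr2:201167067-201167096, chrX:123909003-123909032 and chr11:102378352-102378381.
CFLAR: ATTTATTTAtttttctatttcttgaggttt
XIAP: ATTTAaaacattgcaaATTTAttttATTTA
BIRC2: ATTTAatcttaatctgtttATTTAcaaggg

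FADD, whose gene is the smallest of the 9 (chromosome 11, 70203296 to 70207390, plus strand, 2 exons), held no match in its 917-base 3′ UTR, whereas 74.3% of all 3′ UTRs searched held at least 1. FAS held 10 matches (3.83 per kb), TNFRSF10B 5 (1.97 per kb), CASP8 3 (2.69 per kb) and CASP9 1 (0.649 per kb). A match is a description of the sequence only, and its absence says nothing on other elements.

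Triptolide lowered 8 of the 8 tested members in NONT (limma, adjusted p from 4.19e-11 to 0.000612), where 90.0% of all tested genes were called lower, so the count itself is near the background. The sizes differed widely: the log2 fold change ran from −7.40 for FADD to −1.55 for TNFRSF10B, with a median of −2.60 against −1.62 over all tested genes. In NUP93-KO 7 of 8 members were lower (55.1% of tested genes), with a median of −1.78 against −0.92. In EXOSC5-KO 7 of 8 were lower (64.3% of tested genes), with a median of −1.56 against −1.08. FAS was the member not called in either knockout.

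FADD, the adaptor, was nearly emptied from the mRNA pool. Its signal in untreated NONT was 648 and 951, and with triptolide it was 3.01 and 4.40, which rest on about 5 and 9 reads. In NUP93-KO it went from 742 and 798 to 13.1 and 13.9, and in EXOSC5-KO from 893 and 825 to 16.9 and 11.5. All 6 treated libraries lay far below all 6 untreated ones, and the NONT treated pair lay below the 4 treated knockout libraries.

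Compared with the untreated mean, NONT kept 0.463% of its FADD signal (range over pairs of libraries 0.317% to 0.679%), while NUP93-KO kept 1.75% (1.64% to 1.87%) and EXOSC5-KO kept 1.65% (1.29% to 2.04%). On the log2(value + 1) scale, which understates the change of low values, the fold changes were −7.40, −5.73 and −5.84 (SE 0.33, limma, adjusted p = 4.19e-11, 1.88e-09 and 1.00e-09). Ranked among the 13811 tested genes from the deepest loss, FADD was number 41 in NONT, number 90 with NUP93 targeted and number 117 with EXOSC5 targeted. The call held under all 22 alternative settings in each genotype. It is also the member without an ATTTA match, while across 12933 genes the density of the pentamer and the NONT log2 fold change had a Spearman rho of −0.0582, given as a description over genes that share libraries.

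**Figure D1:**
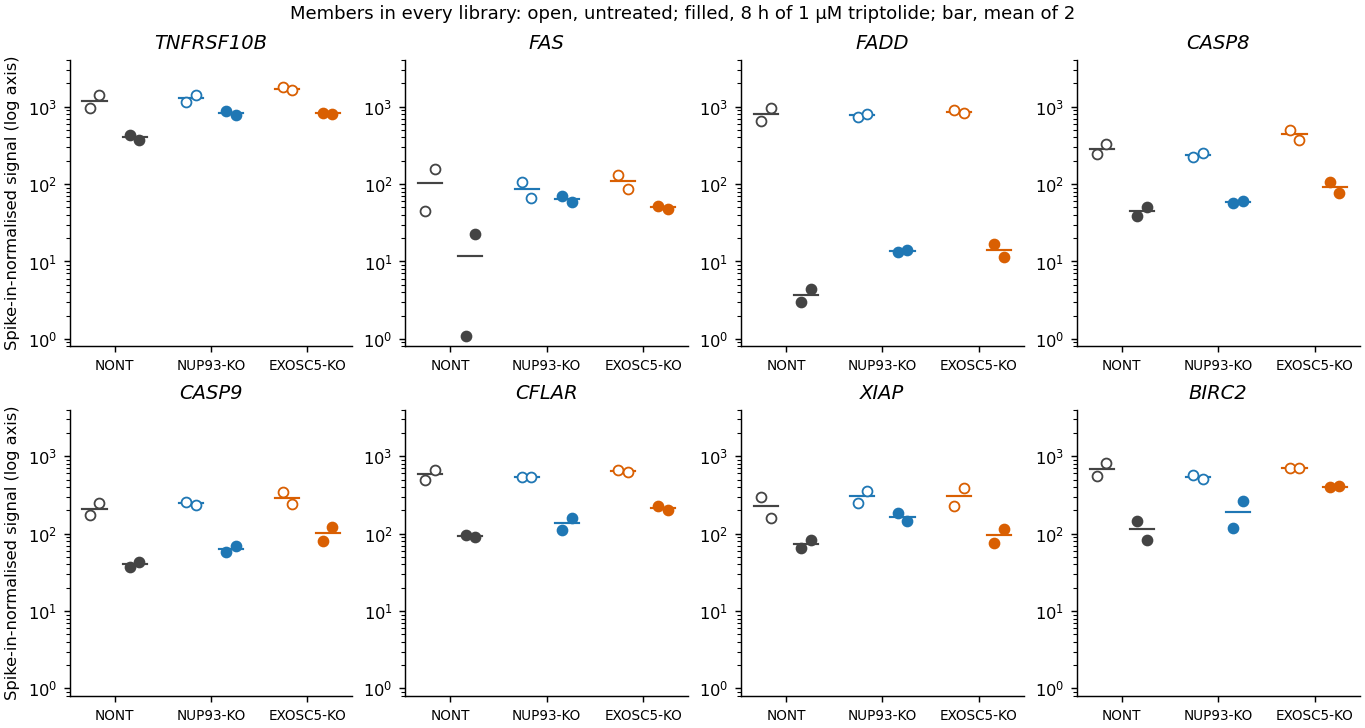
Spike-in-normalised signal (log axis) of the 8 tested members in each of the 12 libraries, with untreated libraries as open points, triptolide as filled points and bars at the mean of 2. FADD falls from 648 or more in every untreated library to 16.9 or less in every treated one, while the TNFRSF10B groups lie much closer together.

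The receptors moved less or more unevenly than their adaptor. TNFRSF10B (DR5; chromosome 8, 23020133 to 23069031, minus strand, 9 exons) had a signal of 957 and 1434 in untreated NONT and 430.2 and 372 with triptolide. In NUP93-KO it was 1145 and 1410.2 against 877 and 789, and in EXOSC5-KO 1803 and 1626 against 832 and 814. Treated and untreated values did not overlap in any genotype, and the 4 treated knockout libraries lay above both treated NONT libraries.

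NONT kept 33.6% of its TNFRSF10B signal, NUP93-KO kept 65.2% and EXOSC5-KO kept 48.0%. The log2 fold changes were −1.55, −0.61 and −1.06 (SE 0.21, limma, adjusted p = 4.70e-06, 0.0211 and 0.000370). These are close to the median gene of each genotype, from which they differed by 0.07, 0.31 and 0.02. The NUP93-KO value missed the threshold without NUP93-KO untreated replicate 2 (−0.46, limma adjusted p = 0.190), without triptolide replicate 1 (adjusted p = 0.0551) and without triptolide replicate 2 (adjusted p = 0.128).

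FAS (chromosome 10, 88953813 to 89029605, plus strand, 9 exons) was the least steady member. Its signal was 45.3 and 159 in untreated NONT and 1.08 and 22.8 with triptolide, the lowest of these resting on about 2 reads' worth of signal. In NUP93-KO it was 105 and 66.9 against 69.8 and 58.9, and in EXOSC5-KO 131 and 87.3 against 51.8 and 48.0. Only in NUP93-KO did the treated and untreated values overlap.

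The FAS log2 fold change was −3.61 in NONT (SE 0.78, limma, adjusted p = 0.000455), −0.38 in NUP93-KO (adjusted p = 0.705) and −1.09 in EXOSC5-KO (adjusted p = 0.225). An SE of this size does not show that FAS was unchanged in the knockouts, and with the fit limited to the EXOSC5-KO libraries the same −1.09 passed (adjusted p = 0.0217). The NONT value was −1.85 without triptolide replicate 1 (limma adjusted p = 0.00681). The TRAIL receptor TNFRSF10A (DR4; chromosome 8, 23190452 to 23225102, minus strand, 10 exons) was listed at 0 in 11 libraries and at 0.999, or about 1 read, in NUP93-KO triptolide replicate 2. The authors' pseudoalignment divides reads that match more than 1 transcript. Whether that affected levels within this receptor family was not examined.

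Both initiator caspases fell in each genotype. CASP8 (chromosome 2, 201233443 to 201361836, plus strand, 9 exons), which FADD recruits, had a signal of 241 and 331 in untreated NONT and 39.2 and 51.0 with triptolide. In NUP93-KO the values were 222 and 254 against 56.4 and 60.0, and in EXOSC5-KO 505 and 370.2 against 105 and 76.3. No treated library reached an untreated one, and treated EXOSC5-KO held the highest treated values.

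The CASP8 log2 fold changes, in the same order of genotypes, were −2.63, −2.01 and −2.26 (SE 0.30, limma, adjusted p = 6.17e-07, 2.41e-05 and 6.37e-06). Their offsets from the median gene were −1.01, −1.09 and −1.18, the most even offset of any member, and the call held in 22 of 22 alternatives each time.

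CASP9 (chromosome 1, 15490832 to 15526534, minus strand, 9 exons), the initiator of the mitochondrial route, stood at 173 and 249.7 in untreated NONT and 37.5 and 42.5 with triptolide. In NUP93-KO it stood at 259.9 and 235 against 57.7 and 68.6, and in EXOSC5-KO at 343 and 242 against 80.2 and 121. Again the treated and untreated libraries were apart in all 3 genotypes. The log2 fold changes were −2.35, −1.96 and −1.54 (SE 0.32, limma, adjusted p = 3.94e-06, 5.42e-05 and 0.000464).

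The inhibitors also fell. The inhibitor that kept the largest share of its signal was XIAP in NUP93-KO (54.3%) and BIRC2 in EXOSC5-KO (57.4%), an order that was not tested. CFLAR (chromosome 2, 201116154 to 201176687, plus strand, 10 exons), which lies near CASP8, went from 496 and 674 to 96.2 and 90.5 in NONT. In NUP93-KO the untreated pair stood at 539 and 542 against 112 and 162 with the drug, and in EXOSC5-KO at 655 and 626 against 227 and 202. The shares that remained were 16.0%, 25.3% and 33.5%, and the treated NONT pair was below every treated knockout library. The log2 fold changes were −2.62, −2.0 and −1.57 (SE 0.24, limma, adjusted p = 5.79e-08, 2.82e-06 and 3.09e-05).

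BIRC2 (chromosome 11, 102347211 to 102378670, plus strand, 9 exons), whose 3′ UTR has the highest pentamer density of the tested members, had a signal of 548 and 815 in untreated NONT and 148 and 82.6 with triptolide. In NUP93-KO it was 574 and 507 against 119 and 260.4, and in EXOSC5-KO 707 and 709.7 against 397 and 416. EXOSC5-KO kept the most, with both treated libraries above the other 4.

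The share of BIRC2 signal kept was 16.9% for NONT, 35.1% for NUP93-KO and 57.4% for EXOSC5-KO. The log2 fold changes were −2.59, −1.61 and −0.80 (SE 0.33, limma, adjusted p = 2.35e-06, 0.000542 and 0.0436). The EXOSC5-KO call is a narrow one: it was kept in 12 of 22 alternatives and was lost without any 1 of the 4 EXOSC5-KO libraries (limma adjusted p from 0.0943 to 0.124) or without either untreated NONT library (0.0514 each).

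XIAP (X chromosome, 123859712 to 123913972, plus strand, 7 exons), a direct inhibitor of caspase-9, was at 294 and 160.4 in untreated NONT and 65.2 and 82.0 with triptolide. It was at 250.5 and 355 against 183 and 146 in NUP93-KO, and at 229.7 and 392 against 76.2 and 114 in EXOSC5-KO. In untreated NONT it was the 1 tested member with a lower value in replicate 2 than in replicate 1, where the median gene was higher by 0.51 on the log2 scale.

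The XIAP log2 fold changes were −1.56, −0.87 and −1.68 (SE 0.35, limma, adjusted p = 0.000612, 0.0457 and 0.000552). NONT and NUP93-KO lay 0.06 and 0.05 above their median gene, and the EXOSC5-KO offset was −0.60. The NUP93-KO call was kept in 15 of 22 alternatives and missed the threshold without untreated replicate 2 (−0.61, limma adjusted p = 0.287), triptolide replicate 1 (0.0634) or triptolide replicate 2 (0.193) of that genotype.

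**Figure D2:**
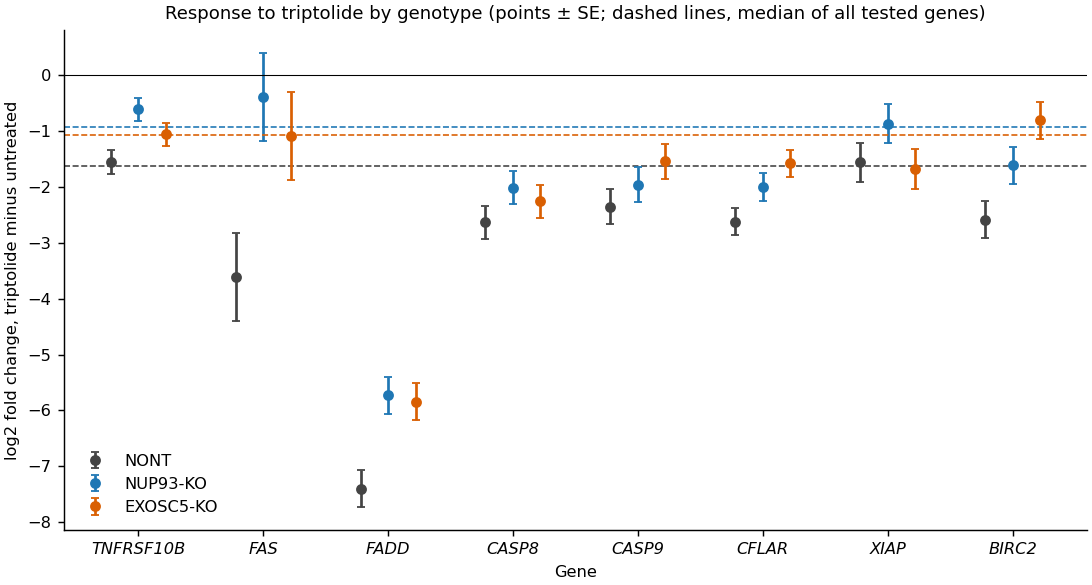
Log2 fold change with triptolide (point ± SE from limma) for each tested member and genotype, with dashed lines at the median of all 13811 tested genes in NONT (−1.62), EXOSC5-KO (−1.08) and NUP93-KO (−0.92). FADD differs from its genotype's median gene by −5.78 to −4.77, whereas TNFRSF10B differs from it by 0.02 to 0.31.

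The spike-in scale places the median gene below 0, and this sets the sign of the mildest members. With libraries rescaled by the median of ratios the median gene moved from −1.62 to −0.01 in NONT, against −0.32 with the same total per library and −1.28 with the same mitochondrial sum. Calls over all genes in NONT went from 12427 lower and 7 higher to 4185 lower and 3752 higher with the median of ratios, and to 5270 lower and 2105 higher with the same total. With the median of ratios 5 members were called lower in NONT (30.3% of tested genes), 4 in the NUP93 knockout (29.7%) and 3 in the EXOSC5 knockout (28.7%). FADD, CFLAR and CASP8 stayed lower and called under every scale in each genotype, whereas TNFRSF10B turned to 0.10, 0.29 and 0.02 with the median of ratios, and its 0.29 in NUP93-KO passed as higher (limma adjusted p = 0.0202).

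Ratios of 2 genes within a library do not depend on the scale, and 5 pairs were chosen after the values had been seen. No ratio was tested, and how often other gene pairs separate was not computed. Whether 2 values overlap with 2 others is thus a description only. The ratio of FADD to CASP8, the adaptor to the caspase it recruits, was 2.69 and 2.87 in untreated NONT and 0.0768 and 0.0862 with triptolide. In NUP93-KO it went from 3.35 and 3.14 to 0.232 and 0.232, and in EXOSC5-KO from 1.77 and 2.23 to 0.160 and 0.151. Untreated and treated ratios were far apart in all 3 genotypes. The ratio of TNFRSF10B to FADD ran the other way, from 1.48 to 2.02 over the untreated libraries and from 49.4 to 143 over the treated ones.

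CFLAR and CASP8, which share the receptor complex, had a ratio near 2 in NONT: it was 2.06 and 2.04 untreated and 2.45 and 1.77 with triptolide. In NUP93-KO the ratio was 2.43 and 2.14 against 1.98 and 2.69, so these groups overlapped. In EXOSC5-KO it was 1.30 and 1.69 against 2.16 and 2.65, with no overlap. The ratio of XIAP to CASP9 overlapped between untreated and treated libraries in EXOSC5-KO (0.670 and 1.62 against 0.951 and 0.942). It did not overlap in NONT (1.70 and 0.642 against 1.74 and 1.93), though 1.70 and 1.74 nearly met. Nor did it in NUP93-KO (0.964 and 1.51 against 3.16 and 2.13). The ratio of BIRC2 to CASP8 went from 1.40 and 1.92 to 3.77 and 5.46 in EXOSC5-KO, with no overlap, while the groups overlapped in NONT (2.27 and 2.46 against 3.77 and 1.62) and NUP93-KO (2.59 and 2.00 against 2.10 and 4.34).

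**Figure D3:**
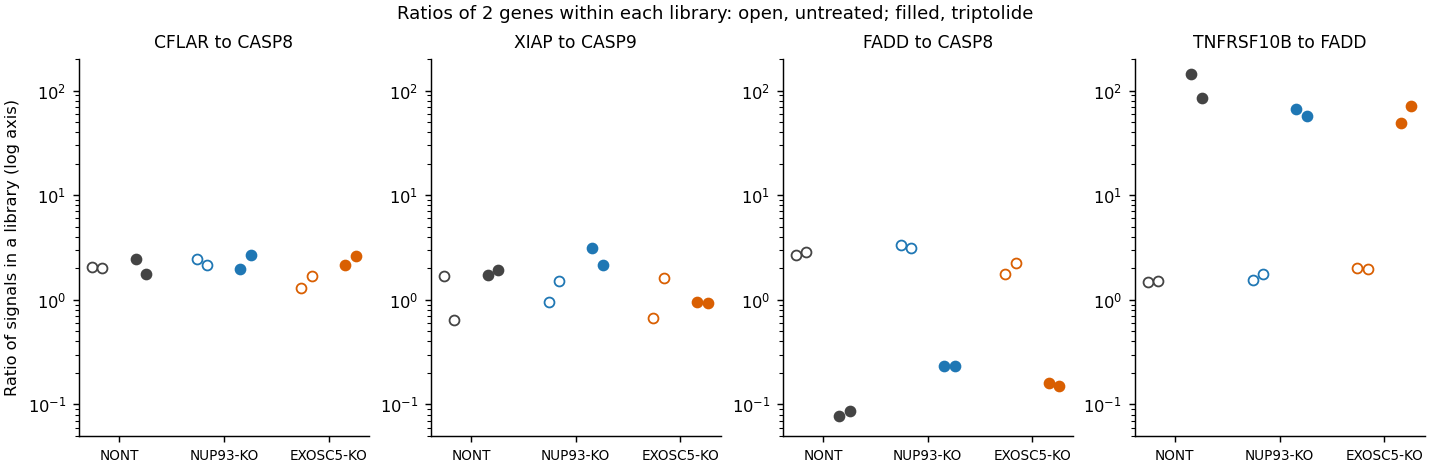
Ratio of signals of 2 genes within each library (log axis) for 4 of the 5 pairs, open points untreated and filled points triptolide. The ratio of FADD to CASP8 drops to 0.0768 to 0.232 in the treated libraries. That of CFLAR to CASP8 lies between 1.30 and 2.69 over all libraries, with the treated values above the untreated ones in EXOSC5-KO.

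Without triptolide, neither knockout moved a member past the threshold. In untreated NUP93-KO against untreated NONT, 0 of 8 members were called by limma (0.0217% of tested genes were called). At an unadjusted p under 0.05 there were 0 members, against 580 of the 13811 tested genes. The log2 differences ran from −0.31 for BIRC2 to 0.46 for XIAP. In untreated EXOSC5-KO 0 of 8 were called (0.521% of tested genes were called). At an unadjusted p under 0.05 there was 1 member, against 1173 of the 13811 tested genes, and the median tested gene stood at 0.07. All 8 members were above 0 there, from 0.08 for BIRC2 to 0.61 for CASP8, on the spike-in scale, but without NONT untreated replicate 1 CFLAR, FAS, BIRC2 and FADD lay below 0 (−0.56 for FAS to −0.073 for CFLAR). Calls over all genes in that comparison were 67 higher and 5 lower, and 284 higher and 503 lower with the median of ratios.

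TNFRSF10B was the member with the unadjusted p under 0.05, at 0.55 in untreated EXOSC5-KO (SE 0.21, limma adjusted p = 0.449). It passed in only 3 of 22 alternatives, over which the difference ran from 0.17 to 0.84. They were the same total per library (0.52, limma adjusted p = 0.0113), the median of ratios (0.45, adjusted p = 0.0197) and leaving out NONT untreated replicate 2 (0.84).

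With triptolide, more signal of several members was present in the knockouts than in NONT. In NUP93-KO 4 of 8 were higher, where 42.1% of tested genes were called: FAS by 3.21 (SE 0.78, limma adjusted p = 0.00898), FADD by 1.64 (0.00408), XIAP by 1.15 (0.020) and TNFRSF10B by 1.05 (0.00395). In EXOSC5-KO 7 of 8 were higher, where 39.4% of tested genes were called, with adjusted p from 0.00139 to 0.0196. BIRC2 led the inhibitors there at 1.87 and CFLAR stood at 1.19, while the caspases CASP9 and CASP8 stood at 1.28 and 0.99. FADD was higher by 1.69, TNFRSF10B by 1.04 and FAS by 2.85, and XIAP had a difference of 0.35 (limma adjusted p = 0.418). Both comparisons use the same 2 NONT libraries.

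The median tested gene was itself higher by 0.66 in NUP93-KO and 0.65 in EXOSC5-KO, so members are best read against it. With the same sum of the 13 mitochondrially encoded mRNAs in each library, 0 and 0 of 8 members were called. Calls over all tested genes then went from 5788 higher and 26 lower to 127 and 22 in NUP93-KO, and from 5417 higher and 27 lower to 227 and 536 in EXOSC5-KO, and with the median of ratios they were 483 and 367, and 920 and 1069. With the fit limited to the groups compared, neither FAS call held (limma adjusted p = 0.0742 in NUP93-KO and 0.0941 in EXOSC5-KO). FAS also lost its call in both knockouts without NONT triptolide replicate 1 (1.45 and 1.10), and stood at 4.97 and 4.61 without replicate 2. XIAP in NUP93-KO lost it without any 1 of the 4 treated libraries compared (limma adjusted p from 0.0621 to 0.0925), CASP8 in EXOSC5-KO without 3 of its 4, namely either NONT library or EXOSC5-KO triptolide replicate 1 (0.0514 to 0.146), and CASP9 in EXOSC5-KO without triptolide replicate 2 (0.0845). BIRC2 in NUP93-KO, at 0.66, gained a call without NONT or NUP93-KO triptolide replicate 1 (0.0288 and 0.0256), and CFLAR, at 0.52, without either untreated NONT library (0.0415 and 0.0414).

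**Figure D4:**
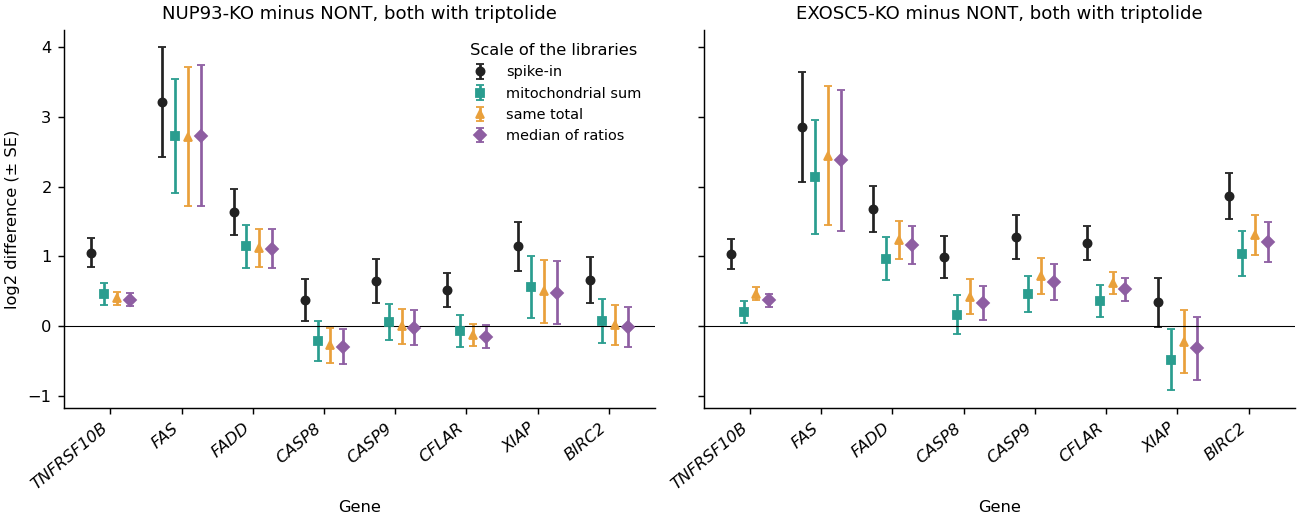
Log2 difference (± SE) between each knockout and NONT, all with triptolide, for the 8 tested members on 4 scales. On the spike-in scale all 8 points are above 0 in both knockouts, and on each of the other 3 scales CASP8 and CFLAR in NUP93-KO and XIAP in EXOSC5-KO lie below 0.

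Whether triptolide acted differently in a knockout than in NONT was tested as a difference of the log2 responses. By limma 0 of 8 members passed for NUP93-KO (0.775% of tested genes were called) and 0 of 8 for EXOSC5-KO (0.333% called). At an unadjusted p under 0.05 there were 3 and 4 members, against 5748 and 3243 of the 13811 tested genes. The median gene differed by 0.74 and 0.57. FADD differed by 1.67 in NUP93-KO (SE 0.47, limma adjusted p = 0.0606) and by 1.56 in EXOSC5-KO (adjusted p = 0.159), and BIRC2 by 0.97 (adjusted p = 0.124) and 1.78 (adjusted p = 0.115). XIAP gave the 1 value below 0, −0.12 in EXOSC5-KO (SE 0.50), which turned above 0 without any 1 of 4 libraries: NONT untreated replicate 2 (0.32), NONT triptolide replicate 2 (0.043), EXOSC5-KO untreated replicate 2 (0.27) or EXOSC5-KO triptolide replicate 1 (0.17).

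These counts turned on single libraries of 2, and so did the counts over all genes. Without NONT untreated replicate 1, limma called 51.2% of tested genes for NUP93-KO and 38.5% for EXOSC5-KO, and 4 of 8 members for each: CFLAR, TNFRSF10B and FADD in both, FAS in NUP93-KO and BIRC2 in EXOSC5-KO. Without NONT triptolide replicate 1, 3 members were called for NUP93-KO (BIRC2, TNFRSF10B and FADD, against 18% of tested genes) and 1 for EXOSC5-KO (BIRC2, against 2.97%). Without NONT triptolide replicate 2 FAS was the 1 member called in each (0.384% and 0.159% of tested genes). BIRC2 was also called for EXOSC5-KO without either treated NUP93-KO library (0.485% and 0.543% of tested genes).

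For 7 members, the gene with the most similar pattern was sought among 10374 candidates by Pearson's r over the 12 libraries, on log2 values less the library median. These correlations describe libraries that share the drug contrast and have no test. FADD paired with RLIM (r = 0.998), TNFRSF10B with SPANXC (0.974), CFLAR with PGS1 (0.944), CASP8 with ZNF23 (0.943), CASP9 with SPRED3 (0.923), FAS with ENSG00000273889 (0.914) and XIAP with PMAIP1 (0.829).

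A list of 36 other genes of these pathways gave the surroundings, of which 29 passed the filter. The ligands FASLG, TNFSF10 and TNF, the receptors TNFRSF10D and TNFRSF25 and the inhibitors BIRC7 and NAIP did not, and the highest value of these 7 in any library was 13.9. Triptolide lowered 28 of 29 in NONT (90.0% of all genes), 22 in NUP93-KO (55.1%) and 22 in EXOSC5-KO (64.3%), with medians of −2.08, −1.31 and −1.25. XAF1, an antagonist of XIAP, was not called in NONT, but it passed the filter only through untreated EXOSC5-KO (13.5 and 29.1) and so was tested in NONT on a few reads, with a signal of 2.14 and 5.29 in untreated and 2.05 and 4.13 in treated NONT and a log2 fold change of −0.17 (limma adjusted p = 0.837).

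Among listed genes with an untreated mean of at least 100, the deepest losses in NONT were in TNFRSF1A, TRAF2 and TNFAIP3. TNFRSF1A, the main TNF receptor, had a signal of 1697 and 2141 in untreated NONT and 37.3 and 20.3 with triptolide, a log2 fold change of −6.06 (limma adjusted p = 3.53e-11). The adaptor TRAF2 followed at −5.17 and TNFAIP3 (A20), a deubiquitinating enzyme of this pathway, at −4.52. The TNFRSF1A log2 fold change was −4.83 in EXOSC5-KO and −5.17 in NUP93-KO, shallower than that of FADD in each genotype.

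The smallest losses in the same set were in CYCS, which encodes cytochrome c (−1.05), BID, the caspase-8 substrate that links the receptor route to mitochondria (−1.16), and SHARPIN, a subunit of the linear ubiquitin ligase (−1.21). BID had a signal of 298 and 415 in untreated NONT and 166 and 149 with triptolide. In the knockouts its log2 fold changes of −0.10 in NUP93-KO and −0.14 in EXOSC5-KO did not pass (limma adjusted p = 0.727 and 0.587).

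The apoptosome gene APAF1 had log2 fold changes of −2.45 in NONT, −2.03 with the NUP93 guide and −2.09 with the EXOSC5 guide. BIRC3, which encodes c-IAP2, had −2.62, −1.58 and −1.98, and DIABLO, which encodes the IAP antagonist Smac, −2.66, −1.87 and −1.95. All 9 of these values passed (limma adjusted p at most 0.00446).

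Without triptolide 0 of the 29 listed genes were called in either knockout by limma (0.0217% of tested genes in NUP93-KO and 0.521% in EXOSC5-KO). At an unadjusted p under 0.05 there were 0 and 4, against 580 and 1173 of the 13811 tested genes. With triptolide, 14 were higher in NUP93-KO than in NONT (42.1% of tested genes), with a list median of 0.72 against 0.66. They were TNFRSF1A (0.80), TNFRSF21 (0.76), CRADD (0.89), CYLD (0.74), TNFAIP3 (1.96), RBCK1 (0.75), SHARPIN (0.75), CYCS (0.72), BID (0.94), DFFA (0.81), BIRC3 (1.38), BIRC5 (0.49), BIRC6 (0.97) and DIABLO (0.60). TNFAIP3 had the largest of these values, and its signal reached 16.0 and 13.3 in the NUP93-KO pair but 2.32 and 3.81 in the NONT pair.

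In EXOSC5-KO 13 were higher than in NONT (39.4% of tested genes), with a list median of 0.78 against 0.65. They were TNFRSF1A (1.32), TNFRSF21 (0.78), TRADD (1.32), TRAF2 (1.31), CRADD (1.19), CYLD (0.83), RBCK1 (0.97), SHARPIN (0.96), BID (0.84), DFFA (0.80), BIRC3 (1.77), DIABLO (0.92) and HTRA2 (0.94). BIRC3 had the largest value, and its signal reached 60.3 and 65.1 in the EXOSC5-KO pair but 21.7 and 14.4 in the NONT pair. The difference in response passed for 0 of 29 in either knockout by limma (0.775% and 0.333% of tested genes). At an unadjusted p under 0.05 there were 9 and 10, against 5748 and 3243 of the 13811 tested genes.

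The pentamer and the loss of mRNA were set side by side for all tested genes. The deepest 1% of losses in NONT, 130 genes, had a median of 1.94 matches per kb against 1.75 over all, and 19.2% of them had none. The length of the 3′ UTR and the log2 fold change had a Spearman rho of −0.166 (n = 12933 genes, a description without a test). Among the members, BIRC2 with 6.16 matches per kb and CFLAR with 1.81 had like NONT log2 fold changes of −2.59 and −2.62. TNFRSF10B, with a density of 1.97 near that of CFLAR, had −1.55, and FAS with 3.83 had −3.61. A relation among the members was not tested.

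**Figure D5:**
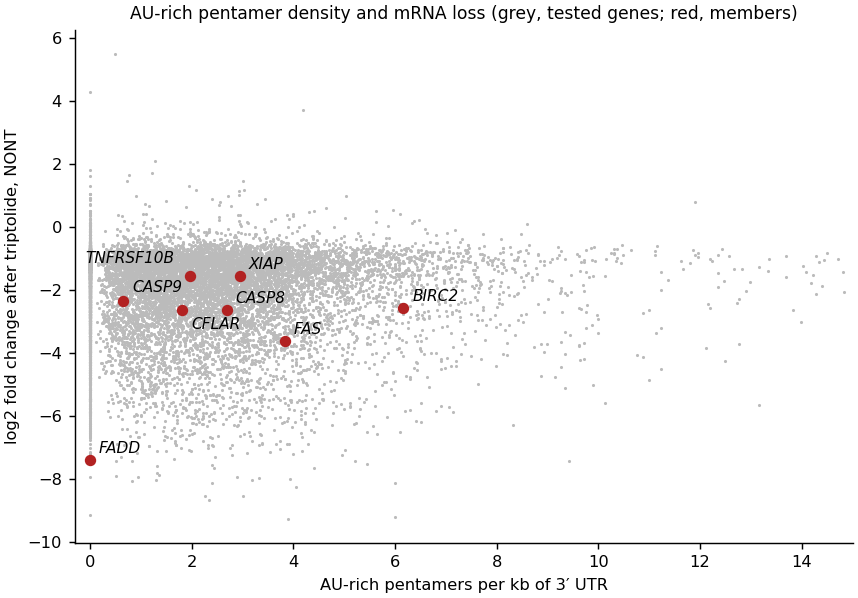
Density of the AU-rich pentamer in the 3′ UTR (matches per kb) against the NONT log2 fold change for 12933 tested genes in grey and the 8 tested members in red, with 37 genes beyond the axis limit of 15 per kb not drawn. FADD sits at 0 matches and −7.40, and BIRC2 at 6.16 per kb and −2.59.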

How the data were processed

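After counting and lysis of the cells the authors spiked in polyadenylated ERCC RNAs by cell number and sequenced strand-specific poly(A) libraries. They pseudoaligned reads to GRCh38 transcripts with kallisto 0.46.1 (the submitters' processing notes), summarised them per gene, restricted the table to protein-coding genes and scaled it with DESeq2 size factors from the 92 ERCC transcripts. The deposited values are thus a normalised signal per gene, not counts. A wrong cell number or spike-in volume would shift every gene of a library alike. Between 24.5% and 30.6% of low values (up to 10 reads) were whole multiples of 1 read (tolerance 0.02 reads), so no count model was used.

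Groups came from the labels. Gene IDs were matched to GENCODE 44 (19584 of 22379 had a symbol). Genes with an untreated mean of at least 10 were tested with limma 3.58.1 in R 4.3.3 on log2(value + 1), with 6 group means, a mean-variance trend and Benjamini-Hochberg adjustment over 13811 genes (threshold 0.05). With 2 libraries a group, an exact permutation test cannot go below p = 0.333, so none was run. Sequences and motif counts came from the GENCODE canonical transcripts and GRCh38, and other steps used Python 3.11.15. The fit was tested on simulated data with equal spread and large changes in few genes, a simpler setting than these libraries. The members and lists were chosen with earlier results of these data known. Named were all 9 members, listed pathway genes past the threshold in a knockout comparison, the 3 deepest and 3 smallest NONT losses among listed genes with an untreated mean of at least 100, APAF1, BIRC3, DIABLO and BID, and 1 most similar gene per member, except that results for some items named by this rule are not reported here. XAF1 was named after its values were seen. Alternatives varied the library scale, pseudocount, filter, variance model, libraries fitted and replicate block, and left out each library in turn.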

Additional observations from a re-analysis of the deposited data

How the results depend on the processing

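The tally covers 54 log2 values: all member responses, all treated comparisons, and chosen values of the untreated comparisons and differences in response. Over these and 22 alternatives (1188 combinations), 1070 kept their direction and their side of the threshold. A further 65 lost the call, 24 gained it and 29 changed sign, 5 of the last when 1 library was left out. Over all 8 members of the untreated comparisons more signs changed. In EXOSC5-KO 4 of 8 did so without NONT untreated replicate 1, and in NUP93-KO 3 of 8 without NONT untreated replicate 2. With 1 library left out, BIRC2 in untreated EXOSC5-KO ran from −0.20 to 0.37 and the XIAP difference in response in EXOSC5-KO from −0.56 to 0.32, and BIRC2 was −0.29 with the same mitochondrial sum and −0.013 with the median of ratios. Gene by gene, differences between replicates 1 and 2 did not correlate between groups (r from −0.05 to 0.04 over 15 pairs of groups). A shift common to all genes of a library cannot show in this measure, so it does not settle how replicates were prepared. The replicate block left the number of members called at 8, 7 and 7 for the responses in NONT, NUP93-KO and EXOSC5-KO. It also left 0 and 0 untreated, 4 and 7 with triptolide, and 0 and 0 for the differences in response. With the same total per library, members called lower numbered 5 in each of the 3 responses (38.2%, 39.3% and 36.8% of tested genes), and members called numbered 1 in untreated EXOSC5-KO (4.88%), and 2 and 4 in treated NUP93-KO and EXOSC5-KO against NONT (6.14% and 13.1%). With the median of ratios 5, 4 and 3 were called lower in the responses (30.3%, 29.7% and 28.7%) and TNFRSF10B higher in NUP93-KO, 1 was called in untreated EXOSC5-KO (5.70%), and 2 and 3 in the treated comparisons (6.15% and 14.4%), which became 0 and 0 with the same mitochondrial sum (1.08% and 5.52%). The difference in response called 1 member in NUP93-KO with a filter at 50 (9.05% of genes) and 1 in EXOSC5-KO with only the groups compared (0.485%). Leaving out 1 library gave 0 to 1 members in untreated EXOSC5-KO (the 1 where 1.43% of genes were called) and 0 to 4 for each difference in response, the 4 where 51.2% and 38.5% of genes were called. In the response, the median of ratios turned TNFRSF10B to 0.10, 0.29 and 0.024 (NONT, NUP93-KO, EXOSC5-KO), XIAP to 0.081 and 0.035 (NONT, NUP93-KO), BIRC2 in EXOSC5-KO to 0.28 and FAS in NUP93-KO to 0.51, and the same total turned FAS there to 0.18. In treated NUP93-KO against NONT, the same total, median of ratios and mitochondrial sum gave CASP8 −0.27, −0.29 and −0.21 and CFLAR −0.13, −0.15 and −0.067. The same total and median of ratios gave CASP9 −0.00077 and −0.019, and the median of ratios gave BIRC2 −0.0061. In treated EXOSC5-KO, XIAP was −0.22, −0.32 and −0.48 on those 3 scales, and the difference in response of TNFRSF10B in EXOSC5-KO was −0.053 and −0.079 with the same total and the median of ratios. The cause of these changes was not tested beyond the shift of all genes that each scale makes. Depth limits FADD in treated libraries (about 5 to 18 reads), FAS in NONT triptolide replicate 1 and TNFRSF10A, which was not detectable at this depth in 11 libraries.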
